A study of Mus musculus with 6 samples.

Results

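The locus around Gli1, Stat6 and Atp5b was a gene-dense stretch of 1.5 Mb on chromosome 10 of the mouse genome (build mm9), in which promoters contacted distal regions that many of them shared. Its members were the distal regions whose listed start lay between 126600000 and 128100000 and that both HiCap replicates listed with an identical promoter fragment. There were 828 such regions of 71955 in the genome, in 1458 called pairs of 94896, and they were linked to 105 promoter fragments of 76 genes. The members were chosen by the pairs in the replicate lists, so their number, their sharing and their distances are descriptions without a test, and only the Hi-C list, which the choice did not use, was set against them. At the edges of the window the regions just inside were at 126605784 to 126606681 and at 128099796 to 128100446, and those just outside were at 126599295 to 126599487 and at 128100446 to 128100819, and each of these 4 had 1 promoter.

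All material came from R1, an established line of untreated mouse embryonic stem cells (mESCs). The cells were grown on gelatin in medium with serum and leukemia inhibitory factor. HiCap, which is Hi-C with a restriction enzyme that cuts at a short motif followed by capture of promoter fragments, was done on 2 biological replicates with a list of pairs each. Hi-C without capture was done on 2 replicates with 1 pooled list, and the 2 samples of Capture-C, a promoter capture on 3C material, are not analysed here. A single line of pluripotent cells is the only model here, so spread between lines was not measured.

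In such assays, chromatin is fixed, cut and ligated, so that a read pair that joins a promoter fragment to another fragment records that they were close in the nucleus. Enhancers act on promoters from a distance, often past other genes, and a distal region may serve several promoters. The locus holds genes of unlike function. Gli1 encodes a zinc-finger factor at the end of Hedgehog signalling, Stat6 the transcription factor that answers interleukin-4, and Atp5b the catalytic beta subunit of the mitochondrial ATP synthase. Neighbours include the stress factor Ddit3, the cell-cycle kinases Cdk2 and Cdk4, the activin beta subunits Inhbc and Inhbe, the ribosomal protein genes Rps26 and Rpl41, and a cluster of retinol and steroid dehydrogenases.

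The regions were restriction fragments. All 828 began at the first base of a GATC, the site of MboI, and ended just before the next listed GATC. Of these, 792 held no inner site and 36 held at least 1. Promoter fragments were listed 2 bases further in, and with that offset all 106 promoter fragments starting in the window lay between GATC sites, 5 of them with a site inside. Ends of both kinds are given below as the lists give them, and printed sequences are numbered from base 1.

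The central 300 bases of 4 of the 6 most shared regions are shown because the sharing described below rests on these fragments. The other 2 overlapped an annotated UTR in that stretch. All are from mm9, plus strand, 5′ to 3′, with each CG dinucleotide in capitals. In order they lie at chr10:126948630-126948929 (between genes, beside Ndufa4l2), chr10:126730232-126730531 (an intron of Ddit3), chr10:127912084-127912383 (a region that overlaps an exon of Smarcc2) and chr10:127945530-127945829 (between genes, beside Myl6b).
Rank 1, beside Ndufa4l2: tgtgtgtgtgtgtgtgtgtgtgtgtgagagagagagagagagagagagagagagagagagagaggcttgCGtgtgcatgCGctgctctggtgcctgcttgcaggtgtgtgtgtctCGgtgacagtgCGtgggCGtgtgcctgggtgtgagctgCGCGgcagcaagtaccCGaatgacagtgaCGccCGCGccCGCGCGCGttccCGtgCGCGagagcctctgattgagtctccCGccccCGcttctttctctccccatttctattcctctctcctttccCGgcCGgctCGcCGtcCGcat
Rank 2, in Ddit3: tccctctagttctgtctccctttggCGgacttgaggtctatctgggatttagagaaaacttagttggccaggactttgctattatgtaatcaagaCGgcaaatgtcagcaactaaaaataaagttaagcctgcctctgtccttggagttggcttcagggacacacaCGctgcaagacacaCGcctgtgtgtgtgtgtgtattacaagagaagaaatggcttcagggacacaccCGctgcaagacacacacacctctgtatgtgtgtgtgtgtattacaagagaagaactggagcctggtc
Rank 4, in Smarcc2: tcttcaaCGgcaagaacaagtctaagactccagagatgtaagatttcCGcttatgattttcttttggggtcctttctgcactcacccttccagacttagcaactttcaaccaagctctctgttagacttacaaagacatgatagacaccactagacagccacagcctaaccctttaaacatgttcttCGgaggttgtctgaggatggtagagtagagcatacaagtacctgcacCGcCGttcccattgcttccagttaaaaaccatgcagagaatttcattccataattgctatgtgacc
Rank 6, beside Myl6b: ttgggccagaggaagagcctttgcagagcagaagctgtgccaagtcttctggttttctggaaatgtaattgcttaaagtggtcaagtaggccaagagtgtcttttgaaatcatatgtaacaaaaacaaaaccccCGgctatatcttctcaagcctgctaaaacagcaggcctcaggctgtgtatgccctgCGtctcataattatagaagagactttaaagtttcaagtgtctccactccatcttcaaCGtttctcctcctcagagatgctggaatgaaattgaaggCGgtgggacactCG
The stretch from the most shared region opened with GT and GA repeats and then held 25 CG dinucleotides, against 5 in each of the other 3. Its G+C content was 62.0%, against 47.0%, 43.7% and 45.0%.

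Over whole regions, the most shared fragment had 58.2% G+C and 49.1 CG per kb. The median over all 828 regions was 47.1% G+C and 10.7 CG per kb, while the 10 regions linked to 10 or more promoters had medians of 49.5% and 18.1 per kb. In the genome, the 356 regions with 10 or more promoters also had a higher median G+C (51.9%) than all regions (46.5%). Length moved with sharing as well. The median region was 495.5 bp long (21 to 3962 bp), and that of the 10 most shared was 1228.5 bp. Of regions up to 250 bp, 16.4% were linked to 2 or more promoters, against 46.9% of those of 1000 to 2000 bp. The part of length or base composition in the sharing was not tested.

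Binding motifs of the named factors were rare in the centres of the regions. Among the 593 regions of 300 bp or more, the GLI consensus TGGGTGGTC was found on either strand in the central 300 bases of 2 (0.337%; 0.282% of the genome's 57481 such regions). The STAT palindrome TTCNNNGAA was found in 41 (6.91%; genome 8.63%), and TTCNNNNGAA, with the 4-base spacing that STAT6 prefers, in 36 (6.07%; genome 7.31%). Both STAT forms read alike on either strand, and matches of the 2 may overlap. None of the 4 printed stretches held any of these letters. The locus and the genome differed little in these shares, which describe letters and not binding.

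The promoter side can be as small as a few bases. Stat6 had 4 captured fragments, of which that of 175 bp is printed with the site that ends it, and the shortest promoter fragment of the locus, 18 bp at Ptges3 (a prostaglandin E synthase that is also the Hsp90 co-chaperone p23), is printed in the same way, with GATC in capitals. They lie at chr10:127093725-127093903 and chr10:127506315-127506336.
Stat6: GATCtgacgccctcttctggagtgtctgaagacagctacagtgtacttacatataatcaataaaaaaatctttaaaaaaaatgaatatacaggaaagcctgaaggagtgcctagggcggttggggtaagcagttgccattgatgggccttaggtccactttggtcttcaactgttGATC
Ptges3: GATCtttttcattgtatcGATC
The Stat6 fragment had 26 distal regions in replicate 1, 35 in replicate 2 and 7 in both. The Ptges3 fragment had 13, 7 and 3.

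The lists differed more in their long pairs than in their size. In the locus, replicate 1 listed 4892 pairs with 1742 regions and 128 promoters, and replicate 2 listed 4954 pairs with 1957 regions and 241 promoters. The 1458 identical pairs were 29.8% of replicate 1 (exact binomial 95% interval 28.5 to 31.1) and 29.4% of replicate 2 (28.2 to 30.7). Over the genome, the same shares were 19.0% of replicate 1 and 17.1% of replicate 2. The median distance between fragment midpoints was 29.4 kb in replicate 1, 63.6 kb in replicate 2 and 14.4 kb in the pairs of both, so that the pairs listed by both had the shortest median. Replicate 2 held 205 pairs over 1 Mb in the locus, 4.14% of its pairs there, and replicate 1 held 8. The lists hold positions and no read numbers, so depth is given only as pairs per list (499746 and 553977 over the genome, 74807 for Hi-C), and the intervals cover counting error only, since pairs that share a fragment are not independent.

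Sharing of distal regions was common. Of the 828 regions, 523 were linked to 1 promoter fragment, 194 to 2 and 305 to 2 or more. This was 36.8% (33.5 to 40.2), and over the genome 15.4% of regions had 2 or more promoters. The 10 regions with 10 or more promoters were 10 of 356 such regions, which made up 0.495% of all regions. The mean was 1.76 promoters per region in the locus and 1.32 in the genome. Across the 828 regions, the numbers of promoters in replicates 1 and 2 had a Pearson r of 0.84 but a Spearman rho of 0.43. In 2 windows of the same width, centred on the most shared region of chromosome 11 and of chromosome 19, 23.1% (19.5 to 27.0) and 38.3% (34.3 to 42.5) of regions were shared, with up to 36 and 31 promoters. The locus, with at most 28, was below both in that number, and the interval of its share held the chromosome 19 value. On the rest of chromosome 10 the share was 18.3% (16.5 to 20.3), with at most 20 promoters. Regions with 10 or more promoters were 10 of 506 in the chromosome 11 window and 12 of 553 in the chromosome 19 window. On the rest of chromosome 10 they were 10 of 1664.

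**Figure D1:**
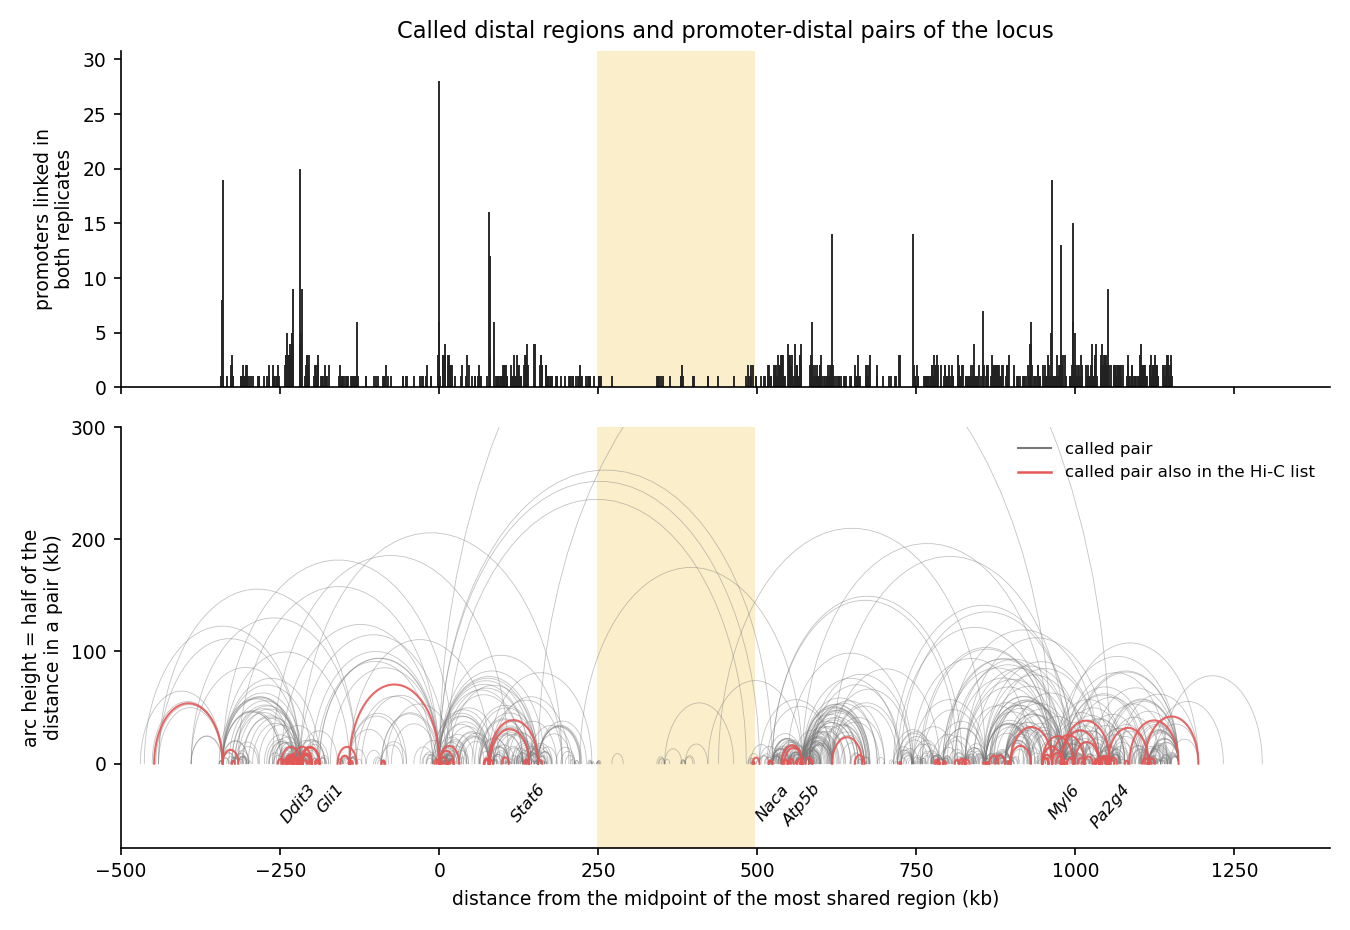
Upper panel, number of promoter fragments linked in both HiCap replicates to each of the 828 distal regions (vertical line), along the distance in kb from the midpoint of the most shared region. Lower panel, the 1458 called pairs as arcs that rise with their distance (kb), in red where the Hi-C list holds the pair (150). Gene names stand under their promoter with the most regions, the yellow band is the dehydrogenase gene cluster, and the 2 longest arcs leave the frame. High lines stand at a few places on either side of the band, and few arcs cross it.

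The most shared region, 916 bp between genes at 126948321 to 126949237, lay 3.18 kb from the promoter of Ndufa4l2, which encodes a mitochondrial protein. It was listed with 50 promoters in replicate 1 and 39 in replicate 2, and 28 were the same (56.0% and 71.8% of each list). They belonged to Dtx3, Kif5a, Mars, Arhgap9, Gli1, Inhbc, R3hdm2, Stac3, Ndufa4l2, Shmt2, Nxph4, Lrp1, Stat6, RP24-492D11.3, Nab2 with 1700012D01Rik, RP24-492D11.5, Myo1a, Prim1, Naca and Pa2g4. Lrp1, a scavenger and signalling receptor, took part with 4 promoter fragments, Stat6 with 3, Stac3 with 3 and R3hdm2 with 2. Promoters stood on both sides, 11 at lower and 17 at higher positions, at a median of 141.3 kb. Of the 28 pairs, 24 skipped at least 1 captured promoter of another gene, that is, such a promoter lay between the midpoints. Hi-C listed 7 promoters with the region, all among the 28: Inhbc, 2 of Stac3, Ndufa4l2, Shmt2 (the mitochondrial serine hydroxymethyltransferase), Nxph4 and 1 of Lrp1.

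The second region was 456 bp in an intron of Ddit3 (126730153 to 126730609), with 34 promoters in replicate 1, 31 in replicate 2 and 20 in both. Its promoters were those of Cyp27b1, LOC100504703, Os9, Slc26a10, Arhgef25, Dtx3, Pip4k2c, Kif5a, Dctn2, Mbd6, Ddit3, Mars, Arhgap9, Inhbe, Shmt2 and Myo1a. Mbd6, which encodes a methyl-CpG-binding domain protein, and Mars, the methionyl-tRNA synthetase, each took part with 3 fragments. Hi-C listed 9 of the 20 and no other. These 9 were Kif5a, the 3 of Mbd6, Ddit3, the 3 of Mars and Arhgap9, all within 30.2 kb.

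The third region was 736 bp over exons of B4galnt1 and Slc26a10 (126607994 to 126608730), with 30, 31 and 19 promoters in replicate 1, replicate 2 and both. Its partners were Fam119b, March9, Cdk4, Os9, B4galnt1, Slc26a10, Arhgef25, Dtx3, Pip4k2c, Kif5a, Dctn2, Mbd6, Ddit3, Mars, Arhgap9, Inhbc and Nxph4. Hi-C listed it with Cdk4 at 107.7 kb, past promoters of 4 genes, and with Dtx3 at 24.6 kb. It had 12 promoters in common with the region in Ddit3, 60.0% of the latter's and 63.2% of its own.

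Further regions stood near Lrp1 and among the genes from Baz2a to Myl6b. An exon region of Smarcc2 (1397 bp, 127911535 to 127912932) had 19 promoters in both lists. One over an exon of Lrp1 (2130 bp, 127025492 to 127027622) had 16, and one between genes near Myl6b (1979 bp, 127944690 to 127946669) had 15. A region over Baz2a and Rbms2 (1060 bp, 127565914 to 127566974) and one over Apon (1573 bp, 127692642 to 127694215) had 14 each. The 2 regions at Smarcc2 and Myl6b had 10 promoters in common (52.6% and 66.7% of each), among them Myl6, Esyt1, Cs, Coq10a and Pa2g4. The regions near Ndufa4l2 and in Lrp1 had 11 in common (39.3% and 68.8%), among them those of Stat6 and Nab2. Regions on opposite sides of the dehydrogenase cluster shared few promoters, 2 at most for any pair of the 8 most shared regions, such as Nab2 and Pa2g4 for those near Ndufa4l2 and in Smarcc2.

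**Figure D2:**
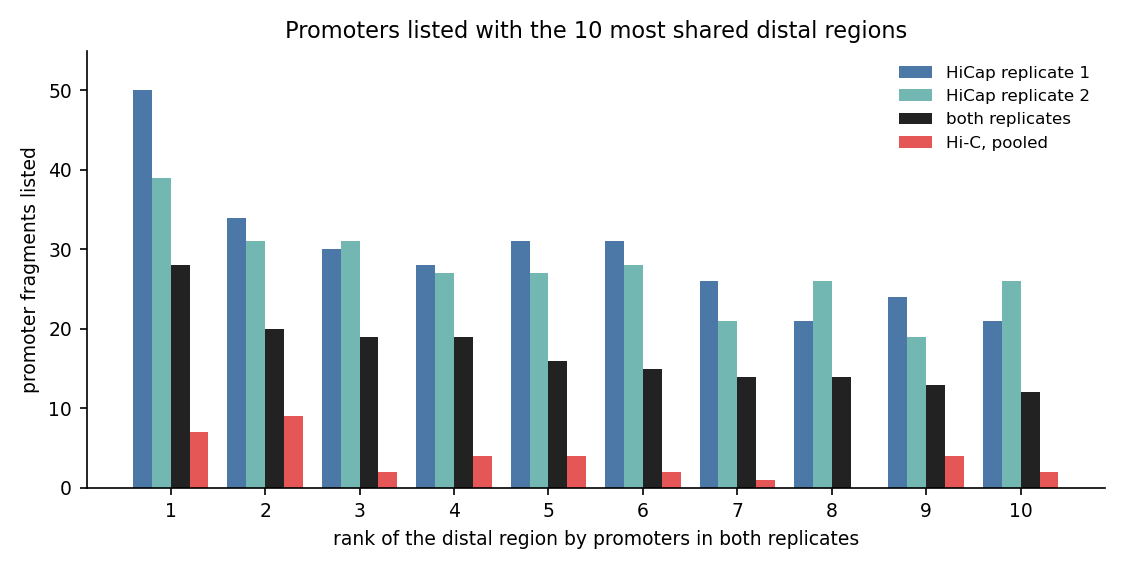
Number of promoter fragments (bars, from 0) listed with each of the 10 most shared distal regions in HiCap replicate 1, HiCap replicate 2, both replicates and the pooled Hi-C list. Each region had 12 to 28 promoters in both replicates and 0 to 9 in Hi-C.

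No region overlapped a captured promoter fragment, but the lists hold promoter-distal pairs, and the authors called promoter-promoter pairs separately, so this follows from the lists. By the GENCODE annotation of this build, 303 regions (36.6%) overlapped an exon, 308 (37.2%) lay in introns and 217 (26.2%) between genes. Many adjoined each other, and joining those that touch left 453 runs, which covered 33.3% of the window. Of the 828, 476 (57.5%, 54.0 to 60.9) were linked to the gene of the nearest captured promoter and 352 were not. For promoters of known strand, 560 of 1343 pairs (41.7%, 39.0 to 44.4) had the region upstream of the promoter. The same shares over the genome are not given here, so these values describe the locus alone.

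Gli1 was among the genes with the fewest pairs. Its only captured fragment, 2498 bp at 126776495 to 126778993, had 6 regions in replicate 1, 2 in replicate 2 and 1 in both. That region was the most shared one, 171.0 kb away past Inhbe, Inhbc, R3hdm2 and Stac3. In replicate 1 alone, the fragment was also listed with the region in Ddit3 at 47.4 kb and with that over B4galnt1 at 169.4 kb, so that it was paired there with each of the 3 most shared regions. Replicate 2 alone added a region at 59.3 kb (126718207 to 126718780). Hi-C listed 4 other regions, 1.43 to 7.71 kb from the promoter, and none of them was in either HiCap list for Gli1.

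Stat6 was spread over 4 promoter fragments and 43 distal regions in both lists, out of 147 in replicate 1 and 187 in replicate 2. The fragments at 127079848 to 127080386 and 127090057 to 127090455 held most of them, with 23 and 25 regions. The other 2 had 7 and 2. Its farthest called partner was again the most shared region, reached from 3 fragments at 131.3, 141.5 and 147.9 kb past 5 genes each. Of 11 regions that Hi-C listed with Stat6, 3 were also called, and all 3 belonged to the fragment at 127090057, including the region in Lrp1 at 61.4 kb (127028543 to 127029096).

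Atp5b had more regions than any other gene, 263 in replicate 1, 253 in replicate 2 and 100 in both. Most came from 1 of its 5 fragments (1779 bp, 127518797 to 127520576), with 238, 179 and 88 regions, of which the last formed 57 runs. A second fragment (127524463 to 127524803) had 72, 68 and 19. From the first fragment, that of 1779 bp, 70 of the 88 pairs skipped another gene. Its median distance was 27.6 kb, and its longest pair reached the Smarcc2 region at 392.5 kb past 19 genes. Upstream and downstream regions were equal in number, 44 of 88 each. Hi-C listed 9 regions with this first fragment, of which 6 were called, 2 of them beyond 25 kb (32.6 and 28.0 kb).

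**Figure D3:**
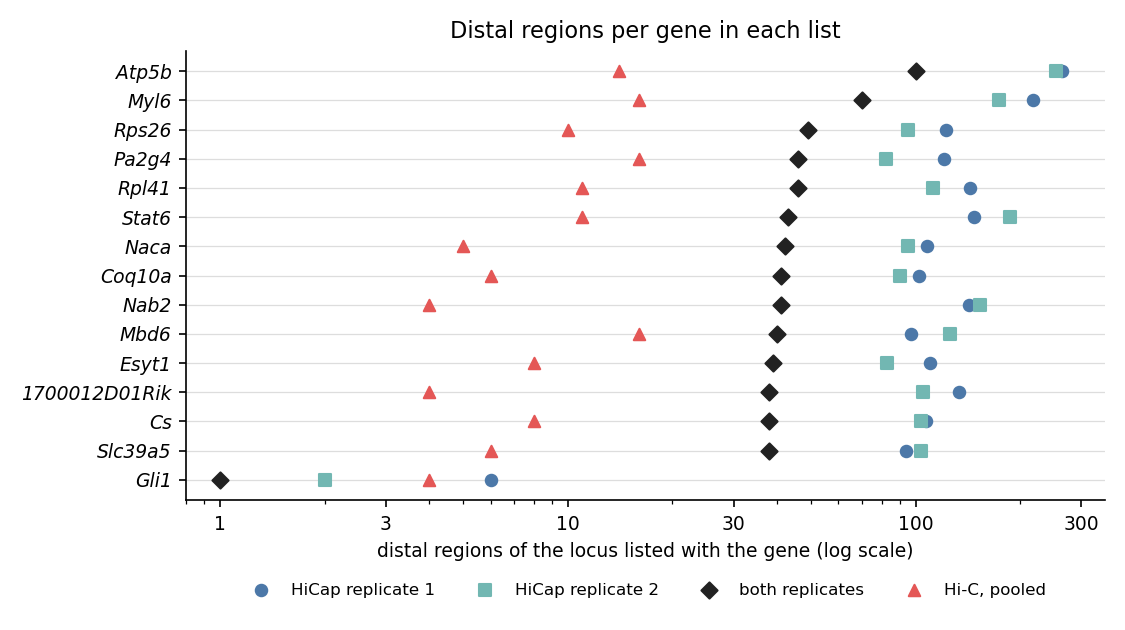
Distal regions of the locus listed with each gene (points, log scale) in HiCap replicate 1, HiCap replicate 2, both replicates and Hi-C, for the 14 genes with most regions in both and for Gli1. Regions in both replicates run from 100 for Atp5b to 38 for Slc39a5, with 1 for Gli1.

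The counts per gene ran alike in both replicates. After Atp5b came Myl6, a myosin light chain, with 217 regions in replicate 1, 174 in replicate 2 and 70 in both, then Rps26 with 122, 95 and 49. Pa2g4, a growth-regulating RNA-binding protein, had 121, 82 and 46. Rpl41 had 143, 112 and 46, Naca, a chaperone of nascent chains, 108, 95 and 42, and Coq10a, which binds coenzyme Q, 102, 90 and 41. Nab2, a repressor of EGR factors, had 142, 153 and 41, Mbd6 97, 126 and 40, the membrane tether Esyt1 110, 83 and 39, the citrate synthase gene Cs 107, 104 and 38, and the zinc transporter Slc39a5 94, 104 and 38. The fragment that Nab2 shares with 1700012D01Rik had 38 regions in both, so these genes cannot be told apart there. Over the 106 promoter fragments in the window, the numbers of regions in replicate 1 and 2 had a Pearson r of 0.94 and a Spearman rho of 0.94. Numbers in both lists and in Hi-C had an r of 0.69 and a rho of 0.70, and fragment length and the number in both lists 0.27 and 0.22. These points share fragments' length and mappability, and are descriptions.

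Of the 71 genes with a captured promoter in the window, 66 had a called region, with a median of 15 regions, and over the genome 59.0% of listed genes had one. The other 10 of the 76 linked genes start outside the window and are counted only because of a called pair, so they are left out of the counts by role. Transcription regulators had a call for 11 of 12, with a median of 25 regions, and were led by Stat6, Nab2, Mbd6 and Baz2a (30), a silencer of ribosomal DNA. Zbtb39 was the member without a call, although it had 13 regions in replicate 1, 5 in replicate 2 and 5 in Hi-C. Mitochondrial and energy genes had calls for 7 of 7, with a median of 27, or 6 of 6 and 32.5 without Sdr9c7, which the dehydrogenase list also holds, from Atp5b, Coq10a, Cs and Shmt2 (27) down to Gls2, a glutaminase, with 1. Translation genes had calls for 3 of 3, with a median of 42 (Rps26, Naca and Mars with 34). Rpl41 is not in that list, and with it the median was 44. Cell-cycle genes had calls for 3 of 3, with a median of 14. Pa2g4 led, Timeless had 14 and Prim1, the primase subunit, had 9. Cdk2, which starts outside the window, had 5 regions in it.

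Ligands and receptors had calls for 10 of 10, with a median of 10.5, and were led by Inhbc (29), Lrp1 (27), the cytokine subunit gene Il23a (18) and the neurexophilin gene Nxph4 (17). Cytoskeletal and trafficking genes had calls for 11 of 11, with a median of 16 (Myl6, Esyt1, Arhgap9 with 23 and Stac3 with 18). The role lists are broad, and some members fit their heading loosely, such as Stac3 and R3hdm2 here and Dtx3 and Obfc2b among the regulators. Medians without these members are not given. Lipid and transport genes had calls for 5 of 5, with a median of 5, led by Slc39a5 and Ptges3 (17), with 5 each for B4galnt1 and Pip4k2c. The retinol and steroid dehydrogenases stood lowest. They had calls for 5 of 9 and a median of 1, from BC089597 with 8, Sdr9c7 with 7 and Rdh1 and Hsd17b6 with 5 each, to Rdh16 with 1. Rdh7, Rdh9, Rdh19 and Rdh18-ps had none in both lists. Each of these 4 was listed in the single replicates, for example Rdh9 with 17 and 30 regions and Rdh7 with 10 and 29.

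Captured promoters without a pair in both lists were 12 of 106. They were a fragment each of Dtx3, Zbtb39, Rdh9, Rdh18-ps, Rdh19, Rdh7, Prim1 and Ikzf4 and 2 each of Sdr9c7 and Gls2. Of these, 9 had regions in replicate 1, 9 in replicate 2 and 7 in Hi-C. Over the genome, 51.9% of the promoter fragments that either HiCap list named had a called pair. That share is on another base than the 106, which were fragments named by any HiCap or Hi-C list. In the other direction, 11 linked promoters of 10 genes started outside the window, among them those of Cdk4, Cyp27b1, Suox and Cdk2.

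The dehydrogenase cluster, 247.9 kb between its outermost captured promoters (127196685 to 127444575), was poor in distal regions called in both replicates. Inside it were 28 distal regions, or 11.3 per 100 kb, against 47.9 per 100 kb at lower and 78.4 per 100 kb at higher positions. Of the 1458 pairs, 557 lay wholly at lower and 864 wholly at higher positions, 32 had an end in the cluster, and 5 spanned it. In replicate 1, 288 of 4892 pairs had an end in the cluster, and in replicate 2, 528 of 4954 had. In Hi-C, 23 of 415 pairs had. The fewer called pairs there thus describe pairs listed by both replicates, not those of each list. A pair must be longer than the cluster to span it, and 20 of the 1458 were. Replicate 1 held 62 spanning pairs of 223 of that length, replicate 2 held 367 of 999 and Hi-C held 1 of 3. At positions taken in steps along the locus, 6 to 10 called pairs (median 8) spanned the 10 positions in the cluster and 8 to 78 (median 38) the 51 outside it. The Hi-C list did not show this dip, with 2 to 9 pairs (median 6.5) inside and 2 to 20 (median 7) outside. Captured promoter fragments were also fewer inside, 11 or 4.44 per 100 kb, against 7.88 and 7.32 per 100 kb at lower and higher positions, and their part was not tested. The 5 spanning pairs were those of Atp5b, Prim1, Naca, Nab2 with 1700012D01Rik, and Pa2g4, over 349.9 to 1055 kb, and Hi-C listed none of them.

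**Figure D4:**
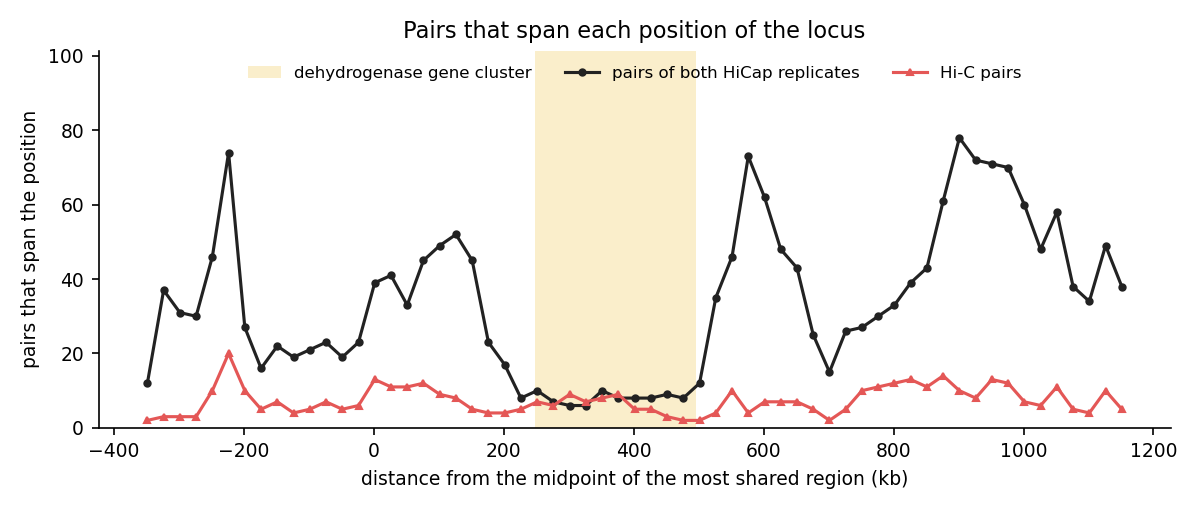
Number of pairs whose midpoints lie on either side of a position (y axis), at steps along the locus given as distance in kb from the midpoint of the most shared region, for pairs in both HiCap replicates (black) and for Hi-C pairs (red). The HiCap line falls to 6 within the yellow band of the dehydrogenase gene cluster and reaches 78 at the right, while the Hi-C line runs from 2 to 9 in the band and from 2 to 20 outside it.

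Pairs in both lists were mostly short. Their distances had a median of 14.4 kb (95% interval 13.4 to 15.4), quartiles of 6.61 and 38.5 kb and a range of 1.37 to 1055 kb. The nearest pair was that of Coq10a. Beyond 100 kb lay 134 pairs (9.19%), and 68 of these belonged to the 10 most shared regions. Over the genome 6.32% of pairs were over 100 kb. The 5 longest were Pa2g4 to the most shared region at 1055 kb, Nab2 with 1700012D01Rik to the Smarcc2 region at 808.0 kb, Naca and Prim1 to the most shared region at 523.6 and 503.5 kb, and Shmt2 to a region at 127431479 to 127431774 at 471.4 kb. None of these 5 was in the Hi-C list.

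Many pairs passed over other promoters. Of the 1458, 680 (46.6%, 44.1 to 49.2) skipped a captured promoter of another gene, and over the genome 29.9% did. In the windows of the same width on chromosomes 11 and 19, 39.9% (36.5 to 43.4) and 49.8% (46.8 to 52.9) of called pairs did. Pairs that skipped 5 or more genes were 114 and those that skipped 10 or more were 33. The 5 longest pairs also skipped most, 51, 37, 24, 23 and 20 genes in the order above. The share rose with distance, from 2.80% under 5 kb through 41.1% at 10 to 25 kb and 93.2% at 50 to 100 kb to all 134 pairs over 100 kb. In the genome the same classes had 1.71%, 30.5%, 82.5% and 93.7%. Gene density, which sets how many promoters can lie between ends, was not adjusted for.

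Hi-C held a minority of the pairs. Its list had 415 pairs in the locus, with 325 regions, 94 promoters and a median distance of 10.6 kb. Of the 1458 called pairs, 150 were in it (10.3%, 8.78 to 12.0), against 12.5% of all called pairs and 16.7% (15.2 to 18.3) on the rest of chromosome 10. The windows of the same width on chromosomes 11 and 19 had 18.1% (15.5 to 20.9) and 13.7% (11.7 to 15.9), so the locus had the lowest share of these. In the other direction, 36.1% of Hi-C pairs (31.5 to 41.0) were called, 252 being in replicate 1 and 181 in replicate 2, and over the genome 15.8% of Hi-C pairs were called. Pairs of a single replicate were rarer in Hi-C, 2.97% (2.43 to 3.59) of those in replicate 1 alone and 0.887% (0.603 to 1.26) of those in replicate 2 alone.

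Distance moved with this share. Under 5 kb it was 20.0% (15.2 to 25.5; all called pairs 20.7%), at 5 to 10 kb 15.5% (11.6 to 20.1; 15.9%) and at 10 to 25 kb 7.43% (5.07 to 10.4; 9.61%). At 25 to 50 kb it was 6.13% (3.31 to 10.3; 5.36%), at 50 to 100 kb 5.59% (2.59 to 10.3; 3.93%) and beyond 100 kb 1.49% (0.181 to 5.29; 2.70%). In each of these 6 classes the interval of the locus held the value of all called pairs. The rest of chromosome 10 had 26.2% under 5 kb, 22.4% at 5 to 10 kb and 11.6% at 10 to 25 kb. Each of these was above the interval of the locus. At 25 to 50 kb (8.57%) and beyond 100 kb (4.84%) the rest of chromosome 10 lay within that interval. At 50 to 100 kb (1.78%) it lay below. Skipping pairs were in Hi-C in 5.15% of cases (35 of 680) and others in 14.8% (115 of 778). Among pairs of 25 kb or more, the shares were 4.74% (2.99 to 7.09; 22 of 464) and 4.65% (0.568 to 15.8; 2 of 43).

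Sharing moved with the Hi-C share in the opposite direction to distance. Pairs of regions with 1 promoter were in Hi-C in 5.93% of cases (4.06 to 8.31; 31 of 523), those with 2 to 9 promoters in 11.0% (8.85 to 13.4; 84 of 765) and those with 10 or more in 20.6% (14.8 to 27.5; 35 of 170), although the median distance of the last was 75.0 kb against 11.3 kb for the first. Under 25 kb the shares were 7.32% (4.96 to 10.3), 14.7% (11.8 to 18.1) and 55.3% (38.3 to 71.4; 21 of 38), and from 25 kb on they were 1.57% (0.191 to 5.57), 3.23% (1.40 to 6.26) and 10.6% (5.92 to 17.2; 14 of 132). In the genome the corresponding shares were 11.8%, 22.1% and 46.4% under 25 kb and 2.00%, 4.64% and 10.4% beyond. Region length rose along the same classes (medians of 399, 594 and 1228.5 bp), and its part was not tested.

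**Figure D5:**
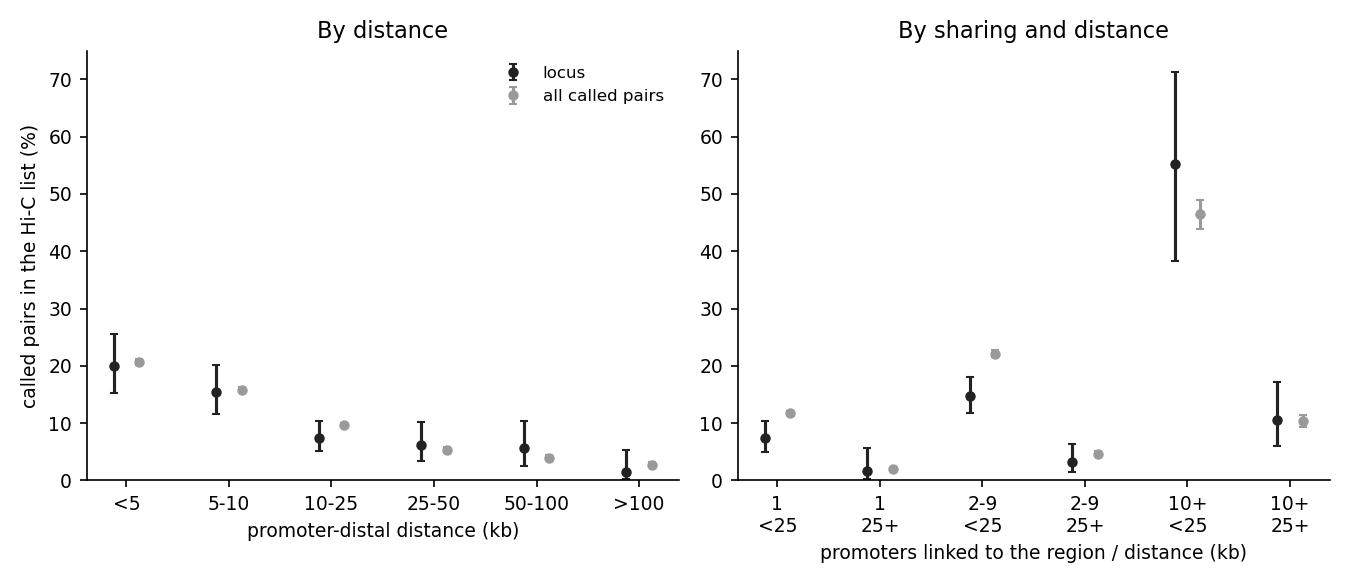
Percent of called pairs that the Hi-C list holds (points, with exact binomial 95% intervals), for the locus (black) and all called pairs (grey), by the distance in kb (left) and by the number of promoters linked to the distal region and the distance (right). Shares fall with distance from 20.0% to 1.49% in the locus, and are highest, at 55.3%, for regions with 10 or more promoters under 25 kb.

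Beyond 25 kb, 24 called pairs were also in Hi-C. The longest joined Inhbc to the most shared region at 141.2 kb past 2 genes, and the next Cdk4 to the B4galnt1 region. Cdk2 was joined at 84.1 kb to a region at 128057165 to 128059024, Nab2 with 1700012D01Rik at 77.7 kb to the larger region in Lrp1, Suox, the sulfite oxidase gene, at 77.1 kb to 128033416 to 128034461, and Pa2g4 at 76.6 kb to 127926067 to 127927733 in Smarcc2. The other genes of these pairs were Obfc2b, Rps26, Stat6, Rpl41, Esyt1, Smarcc2, Rbms2, Atp5b, Lrp1, Arhgap9, Mars, Inhbe and Kif5a, at 28.0 to 65.4 kb. Of the 24 pairs, 14 were at the 10 most shared regions.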

How the data were processed

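HiCap and Hi-C libraries of R1 mESCs were made with MboI after fixation with 1% formaldehyde. The authors aligned each read end to mm9 through HiCUP with Bowtie 0.12.7, discarded multi-mapping reads, duplicates and pairs under 1 kb apart, and called interactions with 3 or more read pairs in each replicate. How the Hi-C list was called is not given in the sources used here. The deposited lists give positions of a promoter fragment and a distal region per pair, without any other unit, score or read number, so no test of read counts was possible. Fields of the lists were read as positions on mm9, which the MboI sites of the same build (NCBIM37) bore out.

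Pairs with identical fragments in both replicate lists were kept (pandas 2.3.3, Python 3.11.15). Distances run between midpoints. A skipped promoter is a captured fragment of another gene between the midpoints, and captured fragments are those that any replicate or Hi-C list names. Regions were placed by GENCODE annotation of NCBIM37 without pseudogenes. Shares have exact (Clopper-Pearson) 95% intervals from scipy 1.17.1, and the counting steps were tested on simulated data. Named genes were Gli1, Stat6 and Atp5b, those with most regions, those at the 3 most shared regions, up to 4 of each role list, and those of the longest, most skipping and far Hi-C pairs. The members, lists and rules were chosen with earlier results of these data known.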

Additional observations from a re-analysis of the deposited data

How the results depend on the processing

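No paired analysis was possible because the lists hold positions without values and no test was run, so the replicate numbers that HiCap, Hi-C and Capture-C samples share could not enter a fit. Of 47 recomputed values, 22 stayed within 1.5 times (counts) or within the interval (shares and the median). With only 1 replicate list in use, regions ranged from 1742 to 1957, pairs from 4892 to 4954, linked promoters from 128 to 241, promoters of the most shared region from 39 to 50, shared regions from 61.3 to 65.4%, the median distance from 29.4 to 63.6 kb, skipping pairs from 62.4 to 74.4% and pairs in Hi-C from 3.65 to 5.15%. For pairs over 15 kb, there were 433 regions, 703 pairs, 22.9% shared regions, a median of 40.5 kb, 80.8% skipping pairs and 4.98% in Hi-C. Joining regions that touch left 453, with 47.7% shared. In the authors' combined list 8.64% of pairs were in Hi-C. With a Hi-C region of the same promoter within 1 kb counted as a match, 33.4% were, and with any promoter of the same gene 13.5%. The settings differ in the pairs they admit, in how regions are joined or in what counts as a match. The part of each in the shifts was not tested. The combined list moved no other value past these limits, and the share of skipping pairs was 48.9% with annotated starts of protein-coding genes in place of captured promoters. The lists hold no read numbers, so how many read pairs stood behind a listed or a missing pair is unknown.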

Other observations

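In the authors' combined list the locus held 1458 pairs with 828 distal regions and 105 promoter fragments, the same numbers as the pairs of both replicate lists, but 1324 of them (90.8%, 89.2 to 92.2) had the identical promoter fragment and distal region. Near matches brought the locus and the genome together. A Hi-C region of the same promoter within 1 kb of the called region was found for 487 of the 1458 called pairs (33.4%, 31.0 to 35.9) and for 35.1% of all called pairs.

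Sdr9c7, an epidermal dehydrogenase, had 7 called regions, all from 1 of its 3 captured fragments. The other 2 fragments were in neither HiCap list with a region of the locus.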
